A study of Homo sapiens with 18 samples.

Results

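The serpins are the genes of the deposited expression table whose symbol is SERPIN followed by a clade letter from A to I and a number. This name alone chose them, and 34 of the 50119 genes in the table carried it. The values given here cover 33 of them, among which clades A (10 genes) and B (13 genes) are the largest. They were followed in RNA sequencing libraries of Saos-2, a human osteosarcoma cell line whose name the labels spell Soas-2, kept in different surroundings. There were 18 libraries, 3 in each of 6 groups, and all carried the genotype label WT. D-2 were cells grown flat for 14 days. D-3 were cells mixed into Matrigel, a basement membrane gel, and cultured for 14 days. DP-3 was tissue printed from cells in a gelatin and alginate bioink, sampled after 14 days and, as DP-3 day 1, after 1 day. FIT was fresh tumor that had grown in vivo, taken 2 weeks after Saos-2 cells were implanted under the skin of female BALB/c nude mice aged 4 weeks, which lack T cells but keep other host cells. IT were pieces of such tumor placed on Matrigel and cultured for 14 days. The authors divided the excised tumor between IT culture and fresh use, so IT and FIT libraries may share tumors. Which of them do is not given in the sources used here. FIT served as the control for the other groups. The labels do not say whether replicates came from separate cultures or animals, so p-values measure the spread between these libraries, which may be technical.

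Most serpins trap serine proteases. The protease cuts an exposed loop of the serpin, stays bound to it, and the pair is cleared as one inactive complex. Clade A holds mostly plasma inhibitors made in liver and clade B mostly inhibitors that stay inside cells. SERPINE2, SERPINF2 and SERPINI1 act in the plasminogen system, whose proteases break down fibrin and matrix around cells. A few members inhibit no protease: SERPINH1 (HSP47) is a collagen chaperone of the endoplasmic reticulum, and SERPINF1 (PEDF) is a secreted factor that holds back blood vessel growth and is made by bone-forming cells.

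2 stretches of sequence bear on how the values can be read. SERPINB3 and SERPINB4, the squamous cell carcinoma antigens, lie side by side on chromosome 18 (SERPINB3 at chr18:63655197-63661893 and SERPINB4 at chr18:63637259-63644256, both on the minus strand), and their coding sequences of 1173 bases were identical at 1117 positions, 95.2%. Even in the least alike window of 60 bases, from base 952 to base 1011 of the coding sequence, 10 bases differed, which are in capitals here (GENCODE 29, GRCh38).
SERPINB3: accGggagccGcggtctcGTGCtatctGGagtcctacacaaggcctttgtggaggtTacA
SERPINB4: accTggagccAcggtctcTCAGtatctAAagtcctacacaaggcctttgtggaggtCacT
How the counting shared reads between such near-identical stretches is not given in the sources used here, so the split between SERPINB3 and SERPINB4 is uncertain.

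SERPINB7, whose level fell furthest between flat culture and fresh tumor among the serpins tested, is shown with the 250 bases before one of its start sites (RefSeq, GRCh38.p14, chr18:63777531-63777780, plus strand), with the letters TGANTCA, the AP-1 motif, in capitals.
SERPINB7: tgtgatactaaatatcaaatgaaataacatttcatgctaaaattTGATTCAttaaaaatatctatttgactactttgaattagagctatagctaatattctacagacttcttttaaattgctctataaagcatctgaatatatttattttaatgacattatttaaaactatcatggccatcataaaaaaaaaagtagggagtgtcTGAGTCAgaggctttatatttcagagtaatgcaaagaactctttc
The 2 matches began at -206 and -45 from the start site, and the latter overlaps the letters of a SMAD motif (CAGAC) read on the minus strand. A second SERPINB7 start site held the AP-1 letters at -154 and -39, and the window of the third start site held none. The table of windows, each from 250 bases before to 50 after a start site, held 41 windows of 27 serpin genes. Searched on both strands, the AP-1 letters stood in 22.0% of these windows, from 8 genes, and in 7.71% of all 35116 windows. The heat shock letters GAANNTTC stood in 12.2% against 6.77%, including SERPINH1, and the letters CAGAC in 58.5% against 45.3%. The TEAD letters GGAATG (12.2% against 14%) and the hypoxia letters ACGTG (19.5% against 21.4%) were a little less frequent in the serpin windows than in all windows. These are matches of letters in related genes, and binding at them was not measured.

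Few of the 33 serpins were abundant. FPKM, the fragments of a gene scaled by transcript length and by the mapped fragments of the library, was used to compare levels between genes. All 33 were above 0 in at least 1 library and 10 in every library. A mean of at least 1 FPKM in some group was reached by 10 of them, and a mean of at least 10 FPKM by only 4: SERPINH1, SERPINE2, SERPINF1 and SERPINB1. Those 4 held between 90.4% and 97.0% of the FPKM summed over the 33 genes in each library. Within that sum SERPINF1 was 1.87% to 2.54% in D-2, 9.22% to 13.7% in FIT and 8.71% to 17.3% in IT, so neither tumor group overlapped flat culture. SERPINE2 was 33.8% to 42.5% of the sum in DP-3 and 17.1% to 23.1% in IT. At the other end, 12 members stayed below 0.1 FPKM in every library, and 7 never exceeded 12 estimated counts, taken as about 3 read pairs. The family cluster on chromosome 14 (94280460 to 94624055), which holds the plasma-type clade A genes, reached a group mean of at least 1 FPKM in 1 of its 9 members, and the cluster on chromosome 18 (63476958 to 64019779) in 2 of 10. The smaller cluster on chromosome 6 (2832332 to 2971777) did so in 2 of 3.

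The libraries held between 23721666 and 79082786 estimated counts, the lowest being FIT replicate 3. DP-3 replicate 3 stood apart by its share of counts from mitochondrial genes, 9.22% against 2.13% to 6.21% in the others. Of the osteoblast lineage markers, SPARC was lowest at 111 FPKM, in an IT library, while ALPL, SP7 and IBSP stayed at or below 0.148, 0.0949 and 0.0802 FPKM. FIT grew in a host animal and IT came from such tumor, and how mouse reads were treated is not given in the sources used here. Summed endothelial markers (8 genes) were 5.53 to 9.39 FPKM in FIT and 4.53 to 8.24 in IT against 1.47 to 4.45 in the other groups, and summed fibroblast markers (7 genes, mostly PDGFRA) were 22.4 to 29.5 in FIT against 6.29 to 18.8 elsewhere. Within these lists single genes differed: KDR peaked at 0.0502 FPKM but PECAM1 at 5.01 and CDH5 at 1.34, both in IT, and DCN at 0.0858 but COL3A1 at 3.94 and DPT at 4.26, both in FIT replicate 3. Likewise PTPRC (leukocytes) peaked at 0.0625 FPKM but CSF1R at 2.35, ADIPOQ (fat) at 0.0181 but FABP4 at 8.53, and ALB (liver) at 0.00907 but FGB at 0.968. Skeletal muscle markers (12 genes) summed to 0.272 to 1.41 FPKM outside FIT and to 6.27 in FIT replicate 3, where MYH2 was 3.61. KRT14, a keratinocyte gene, was 10.4 FPKM in FIT replicate 1 and 0 in all D-3 and DP-3 day 14 libraries. The summed keratinocyte (6 genes, mostly KRT10), macrophage (9 genes, mostly CD68), adipocyte and hepatocyte markers spanned 16.3 to 41.7, 25.3 to 120, 0.155 to 8.71 and 0.0252 to 1.43 FPKM over the libraries. In such bulk RNA, fewer cells of a type and less RNA per cell cannot be told apart.

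Group differences were tested with edgeR on the estimated counts, and a gene was called when its adjusted p was below 0.05 and its fold change at least 2. Across all 6 groups, 18 of the 33 serpins passed the filter of 0.1 FPKM in at least 3 libraries and 10 were called, in a test that called 23.8% of all genes. These 10 were SERPINA1, SERPINA3, SERPINB1, SERPINB3, SERPINB4, SERPINB7, SERPINE2, SERPINF1, SERPINF2 and SERPINI2. The count was 6 without D-2 replicate 2 and also 6 without DP-3 replicate 3. The 15 members that were not tested in any comparison stayed at or below 0.132 FPKM. Some members pass the filter only through the group in which they are high, so a share of tested members says little by itself.

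Against FIT, 2 of 12 tested serpins were called in D-2 (SERPINB7 higher, SERPINF1 lower), where 14.6% of all genes were called, 3.83% higher and 10.8% lower. In D-3, 1 of 16 was called (SERPINB7 higher), against 6.45% of all genes (4.29% higher, 2.17% lower). That count was 2 without FIT replicate 2, where SERPINA3 was added, or FIT replicate 3, where SERPINB4 was added. In those fits the added gene passed the filter only through the D-3 libraries, and the library left out was its highest in FIT. Such added calls therefore say little by themselves. In DP-3, 2 of 14 were called (SERPINB7 higher, SERPINB1 lower), against 4.82% (1.66% higher, 3.16% lower). That count fell to 0 without DP-3 replicate 1, DP-3 replicate 2, FIT replicate 1 or FIT replicate 2 and to 1 without DP-3 replicate 3, but was 4 without FIT replicate 3, where SERPINF1 and SERPINH1 were added. In IT none of 16 was called, with a background of 0%: edgeR called no gene at all, although 2693 genes, 4 of them serpins, had an unadjusted p below 0.05. DESeq2 called 661 genes there, of which 3 were serpins, SERPINB3, SERPINB4 and SERPINB7. SERPINB3 and SERPINB4, whose split of reads is uncertain, passed the filter there only through the IT libraries. Both were at or below 12 estimated counts in every FIT library. The libraries of both groups did not overlap for 7 of the 12 serpins tested in D-2 (49.9% of all genes), 7 of 16 in D-3 (32.4%), 6 of 14 in DP-3 (34.1%) and 4 of 16 in IT (20.6%). These 4 comparisons share the FIT libraries.

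Between the cultures, D-3 differed from D-2 in 6 of 15 tested serpins (SERPINA1, SERPINA3, SERPINB3, SERPINB4, SERPINF1 and SERPINI1, all higher), where 18.5% of all genes were called (14.6% higher, 3.95% lower), and in 3 when any 1 D-3 library was left out. SERPINA3, SERPINB3 and SERPINB4 then no longer passed the filter and were not tested, so their loss was fixed by the filter. DP-3 differed from D-2 in 2 of 12 (SERPINE2 and SERPINF1, both higher), where only 1.04% of all genes were called (0.722% higher, 0.318% lower). That count fell to 0 without any 1 D-2 library and to 1 without DP-3 replicate 1 or 2. From day 1 to day 14 of printed culture, 2 of 12 were called (SERPINF1 higher, SERPINA1 lower), where 7.56% of all genes were called (1.81% higher, 5.76% lower), none without DP-3 replicate 3 and 1 without DP-3 replicate 1 or any 1 day 1 library. Without overlap between the groups were 8 of 15 serpins in D-3 against D-2 (53.2% of all genes), 8 of 12 in DP-3 against D-2 (30.9%) and 8 of 12 in DP-3 against DP-3 day 1 (45.2%). The median log2 fold change of the tested serpins ranged from -0.34 (DP-3 vs D-2) to 0.36 (D-3 vs D-2), beside 0.03 and 0.11 for all genes tested there.

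**Figure D1:**
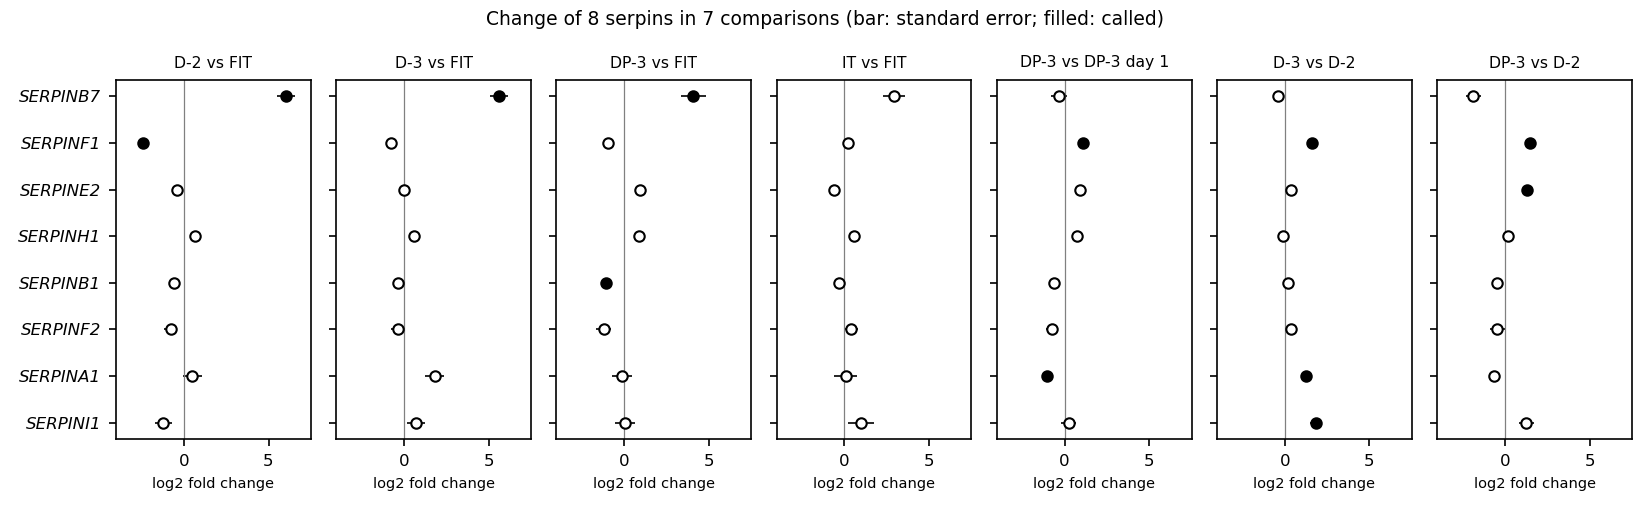
Log2 fold changes (x axis) with standard errors from edgeR for 8 serpins (y axis) in the 7 comparisons, 3 libraries against 3, with filled points where the gene was called. SERPINB7 lies to the right of 0 and filled for all 3 cell cultures against FIT, and no point is filled for IT against FIT.

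**Figure D2:**
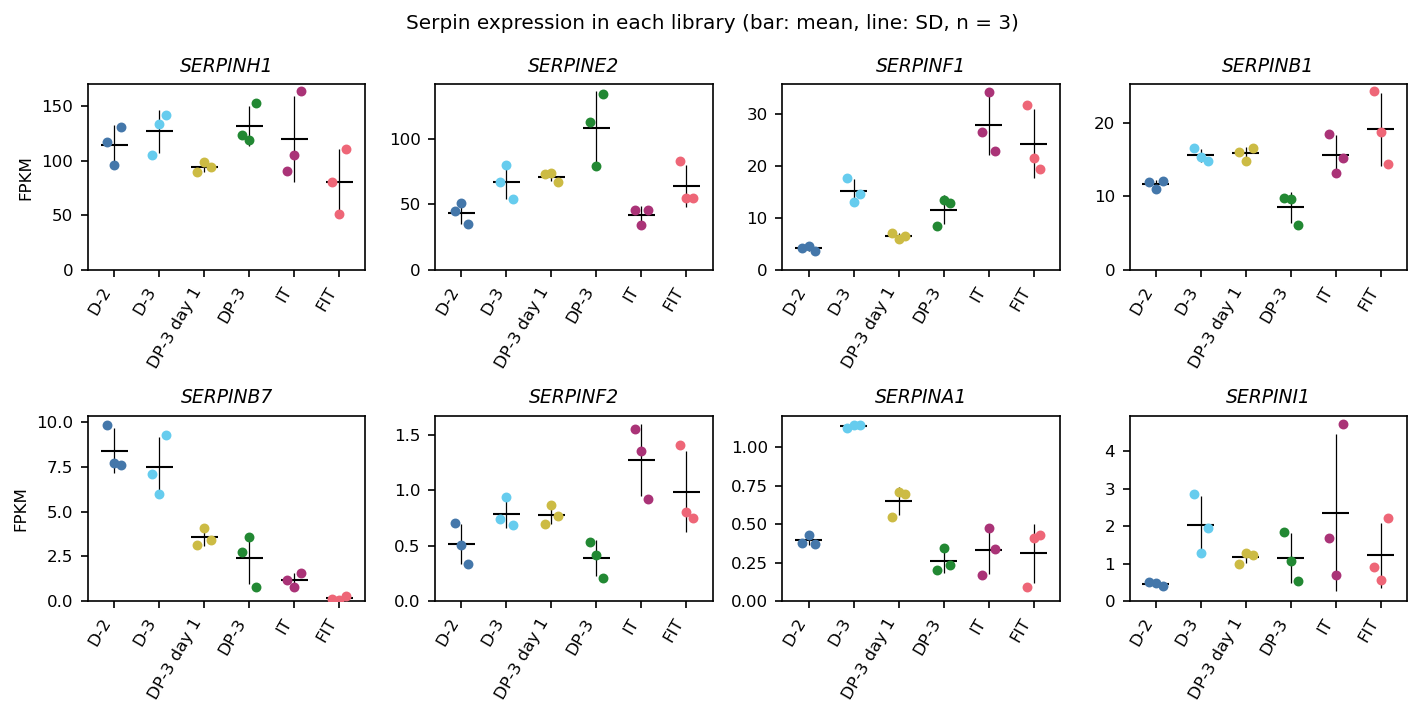
FPKM (y axis) of 8 serpins in each of the 18 libraries, by group (x axis), 1 panel per gene, each axis starting at 0, with the mean as a bar and the SD as a line (n = 3). SERPINF1 and SERPINI1 are lowest in D-2, SERPINB7 is lowest in FIT, and SERPINE2 is highest in DP-3.

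SERPINE2 (protease nexin-1, ENSG00000135919, chr2:223975045-224039290, minus strand), which inhibits thrombin, urokinase and plasmin at the cell surface, was highest in DP-3, with 113, 79.1 and 134 FPKM, and lowest in IT, with 45.4, 33.8 and 45.8 FPKM. D-2 held 44.7, 51.3 and 34.8 FPKM. All DP-3 libraries were above all D-2 and IT libraries, whereas DP-3 replicate 2 lay below FIT replicate 1 (83.0 FPKM) and D-3 replicate 2 (79.8 FPKM). The means were 71.3 ± 3.55 FPKM in DP-3 day 1, 66.8 ± 13.0 in D-3 and 64.0 ± 16.4 in FIT, and these 3 groups overlapped as neighbours in the order.

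SERPINE2 was called in DP-3 against D-2, 2.46-fold higher (log2 fold change 1.3, SE 0.24, adjusted p = 0.0436). That call was lost when any 1 library other than DP-3 replicate 2 was left out, with an adjusted p between 0.0524 (without DP-3 replicate 3) and 0.164 (without D-2 replicate 1). From day 1 to day 14 in printed tissue SERPINE2 rose by 0.89 (SE 0.21, adjusted p = 0.0236), 1.85-fold and so below the 2-fold limit. It was 0.91 above FIT in DP-3 (SE 0.26, adjusted p = 0.0651) and 0.61 below FIT in IT (SE 0.21, adjusted p = 0.309), and neither passed.

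SERPINF1 (PEDF, ENSG00000132386, chr17:1762029-1777565, plus strand) was scarce in flat culture and abundant in tumor tissue. D-2 held 4.12, 4.57 and 3.68 FPKM, and DP-3 day 1 held 7.14, 5.98 and 6.40 FPKM. FIT held 31.8, 21.5 and 19.4 FPKM. Neither culture group reached the lowest tumor library. Levels were 8.38, 13.4 and 12.8 FPKM in DP-3 and 17.7, 12.9 and 14.6 FPKM in D-3, groups that overlapped each other, and 26.5, 34.2 and 22.9 FPKM in IT, which overlapped FIT.

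SERPINF1 was 5.26-fold lower in D-2 than in FIT (log2 fold change -2.39, SE 0.20, adjusted p = 0.00159). In D-3 (-0.74, SE 0.22, adjusted p = 0.0752) and DP-3 (-0.93, SE 0.24, adjusted p = 0.0521) the libraries lay below all FIT libraries but the test was not passed, and IT differed from FIT by 0.21 (SE 0.23, adjusted p = 0.765). The gene was 3.07-fold higher in D-3 than in D-2 (1.62, SE 0.16, adjusted p = 0.00159), a comparison of cultures with no tumor tissue. It was 2.74-fold higher in DP-3 than in D-2 (1.46, SE 0.20, adjusted p = 0.0265), a call lost without any 1 of the D-2 libraries or DP-3 replicate 2 (adjusted p 0.0601 to 0.127). It was 2.14-fold higher after 14 days of printed culture than after 1 day (1.10, SE 0.20, adjusted p = 0.00982). That change fell just under 2-fold without DP-3 replicate 2 (adjusted p = 0.0301) or without DP-3 replicate 3 (log2 fold change 0.97). The summed fibroblast markers, which were highest in FIT, were lower in D-3 (6.29 to 6.72 FPKM) than in D-2 (14.6 to 15.9 FPKM), opposite to SERPINF1, and their part in the difference from FIT was not tested.

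The neighbouring gene SERPINF2 (alpha-2-antiplasmin, ENSG00000167711, chr17:1742836-1755265, plus strand), the main plasmin inhibitor of blood, was much lower. Its levels were 1.56, 1.35 and 0.917 FPKM in IT and 1.41, 0.8 and 0.750 FPKM in FIT. D-2 held 0.701, 0.503 and 0.338 FPKM, and DP-3 held 0.537, 0.418 and 0.212 FPKM. The FIT libraries lay above those of D-2 and DP-3, and all neighbouring groups in its order overlapped. D-3 (0.744, 0.936 and 0.690 FPKM) and DP-3 day 1 (0.699, 0.869 and 0.769 FPKM) were alike in level. It was called across the 6 groups (2.97-fold range, adjusted p = 0.0364), though not without either D-2 replicate 2 or 3, DP-3 day 1 replicate 1 or 3, DP-3 replicate 2 or 3, or IT replicate 1 or 2 (adjusted p 0.0508 to 0.096), and in no pairwise comparison, with DP-3 against FIT at -1.22 (SE 0.46, adjusted p = 0.133).

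The plasminogen activators, which turn plasminogen into the plasmin that SERPINF2 inhibits, both had their highest group mean in FIT. PLAT, the tissue plasminogen activator and target of SERPINI1, was 17.0, 16.2 and 24.7 FPKM in FIT and 11.6, 3.09 and 5.71 FPKM in IT, but no more than 3.96 FPKM in any library of the other groups. It was lower than in FIT in D-2 (log2 fold change -2.17, SE 0.17, adjusted p = 0.00145), D-3 (-3.06, SE 0.27, adjusted p = 0.00165) and DP-3 (-3.20, SE 0.19, adjusted p = 0.00102). PLAU, urokinase, one of the targets of SERPINE2, was the more abundant activator, with 129 ± 21.8 FPKM in FIT, 107 ± 48.6 in IT, 88.9 ± 4.83 in DP-3 day 1, 82.4 ± 12.4 in DP-3, 70.2 ± 4.49 in D-2 and 56.8 ± 9.07 in D-3 (mean ± SD, n = 3), and it was called only in D-3 against FIT (-1.24, SE 0.20, adjusted p = 0.0115). The urokinase receptor gene PLAUR, at 10.7 to 21.5 FPKM in all libraries, was not called in any of the 7 comparisons. PLG, the plasminogen gene itself, was at or below 0.0335 FPKM throughout.

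**Figure D3:**
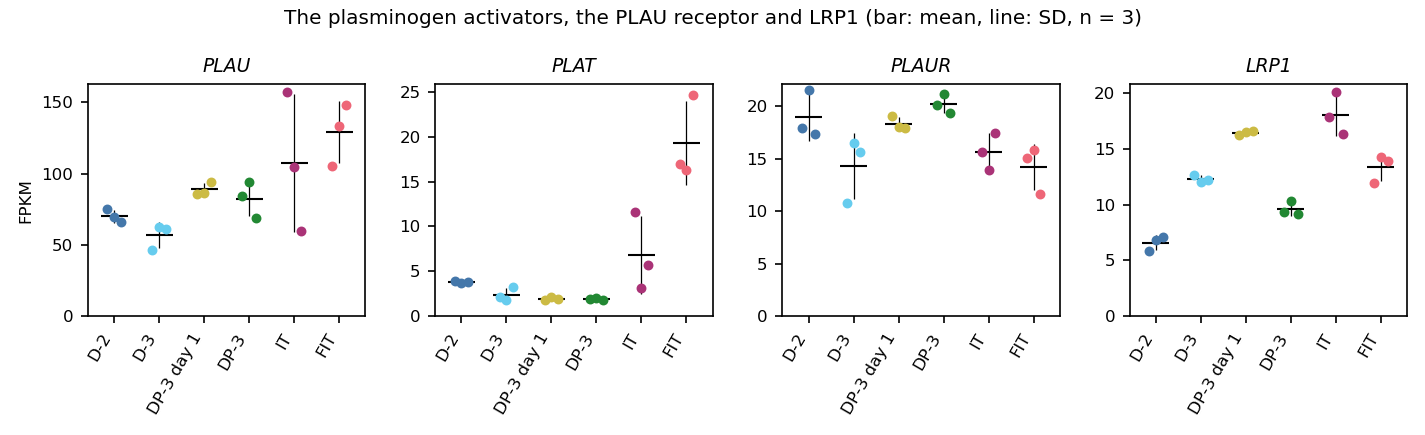
FPKM (y axis) of the activators PLAU and PLAT, of the receptor PLAUR and of the clearance receptor LRP1 in each library, by group (x axis), with mean as a bar and SD as a line (n = 3). PLAT is at most 3.96 FPKM outside IT and FIT, PLAUR stays between 10.7 and 21.5 FPKM, and LRP1 is lowest in D-2.

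SERPINH1 (HSP47, ENSG00000149257, chr11:75562056-75572783, plus strand) binds newly made procollagen, and its level varied less than those of SERPINE2, SERPINF1 and SERPINB1. It was 117, 96.0 and 131 FPKM in D-2, 105, 133 and 142 FPKM in D-3 and 89.7, 98.6 and 94.0 FPKM in DP-3 day 1. DP-3 held 123, 119 and 153 FPKM, IT 90.4, 105 and 164 FPKM, and FIT 80.6, 50.9 and 111 FPKM. Every group overlapped its neighbour in the order of the means. SERPINH1 was called in none of the 7 comparisons and not across the 6 groups, where the range was 1.83-fold (adjusted p = 0.0493), below the 2-fold limit. It was 0.76 higher at day 14 than at day 1 of printed culture (SE 0.14, adjusted p = 0.0108, 1.70-fold), and 0.85 higher in DP-3 than in FIT (SE 0.27, adjusted p = 0.0887), a value of 1.13 that was called (adjusted p = 0.032) without FIT replicate 3. Between D-3 and D-2 the change was -0.11 (SE 0.16, adjusted p = 0.64), and its sign turned in the limma fits on FPKM (0.14).

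Of the collagen genes, whose products SERPINH1 helps to fold, COL1A1, the main bone collagen, was 21.0, 19.6 and 20.2 FPKM in FIT, 2.53, 12 and 4.61 FPKM in IT and at most 5.02 FPKM in any other library. It was lower than in FIT in D-2 (log2 fold change -2.12, SE 0.13, adjusted p = 0.000808), D-3 (-2.87, SE 0.14, adjusted p = 0.000273) and DP-3 (-2.16, SE 0.20, adjusted p = 0.00379), and rose by 1.39 (SE 0.19, adjusted p = 0.0038) from day 1 to day 14 in printed tissue. COL1A2 was lower in D-3 than in D-2 (-2.86, SE 0.20, adjusted p = 0.000797) and in DP-3 than in D-2 (-1.77, SE 0.21, adjusted p = 0.0178). The FPKM of SERPINH1 was 2.60 to 5.46 times that of COL1A1 in FIT and 22.7 to 50.0 times in the cell culture libraries, with 35.8, 8.77 and 35.6 in IT. Of the 16 collagen and collagen-folding genes listed, all 16 tested, 2 were called against FIT in D-2 (PLOD2 higher, COL1A1 lower; 14.6% of all genes), 4 in D-3 (P4HA1 and P4HA2 higher, COL1A1 and COL1A2 lower; 6.45%) and 1 in DP-3 (4.82%).

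SERPINB7 (megsin, ENSG00000166396, chr18:63752935-63805376, plus strand), a clade B serpin known from kidney mesangium and skin, had the widest range among the serpins with a group mean of at least 1 FPKM. Its levels were 9.85, 7.72 and 7.63 FPKM in D-2 and 7.12, 5.99 and 9.29 FPKM in D-3. In FIT they were 0.107, 0.0714 and 0.308 FPKM, from 15 to 23 estimated counts in each library. The groups were far apart, and every library of every other group lay above FIT. IT held 1.17, 0.8 and 1.59 FPKM, DP-3 day 1 held 3.14, 4.09 and 3.43 FPKM and DP-3 held 2.77, 3.59 and 0.799 FPKM, the lowest of these being the replicate with the high mitochondrial share. D-2 and D-3 overlapped, as did DP-3 with DP-3 day 1 and with IT.

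SERPINB7 was 65.2-fold higher than FIT in D-2 (log2 fold change 6.03, SE 0.52, adjusted p = 0.00159), 48.7-fold in D-3 (5.60, SE 0.55, adjusted p = 0.00238) and 16.9-fold in DP-3 (4.08, SE 0.74, adjusted p = 0.0235). With so few counts in FIT the size of these changes is uncertain. Without FIT replicate 3 the log2 fold changes were 6.67, 6.30 and 4.83, and limma gave 5.12 in D-2 and 4.93 in D-3 on log2(FPKM + 0.1) and 3.01 and 2.85 on log2(FPKM + 1). The DP-3 call was lost without DP-3 replicate 1 or 2 or FIT replicate 1 or 2 (adjusted p 0.0678 to 0.0888), with changes of 3.67 to 3.95. In IT it was 7.68-fold higher than in FIT (2.94, SE 0.65), which edgeR did not call on these 6 libraries (adjusted p = 0.197), although a fit of all 18 libraries did (3.05, adjusted p = 0.00413). DP-3 was 1.85 below D-2 (SE 0.46, adjusted p = 0.0822), a change of -1.46 that was called without DP-3 replicate 3 (adjusted p = 0.0259). D-3 differed from D-2 by -0.42 (SE 0.20, adjusted p = 0.135). The mean levels of the keratinocyte genes KRT5 and KRT14 were lower in all 3 of these cultures than in FIT, opposite to SERPINB7. KRT14 varied widely within FIT (10.4, 1.67 and 0.115 FPKM), and D-2 replicate 3 (0.210 FPKM) lay above the lowest of these. KRT10, the most abundant gene of that list, overlapped FIT in each culture. Whether keratinocytes had a part in the SERPINB7 difference was not tested.

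Another gene of the chromosome 18 cluster behaved otherwise. SERPINB8 (chr18:63970029-64019779), an intracellular inhibitor of furin-like proteases that overlaps HMSD on its own strand, was 0.632 to 2.47 FPKM in all libraries and was called nowhere. The FPKM of SERPINB7 was 7.15 to 8.82 times that of SERPINB8 in D-2 and 0.0596 to 0.330 times in FIT.

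SERPINB1 (leukocyte elastase inhibitor, ENSG00000021355, chr6:2832332-2841863, minus strand) was the most abundant clade B serpin. FIT held 24.3, 18.7 and 14.4 FPKM, IT 18.5, 13.2 and 15.2 FPKM, and DP-3 9.74, 9.67 and 6.05 FPKM. D-2 held 11.9, 11 and 12 FPKM, D-3 held 16.5, 15.4 and 14.8 FPKM, and DP-3 day 1 held 16.0, 14.8 and 16.6 FPKM. DP-3 was below all other groups with no overlap, D-2 was next, and the remaining 4 groups overlapped. The gene was 2.07-fold lower in DP-3 than in FIT (log2 fold change -1.05, SE 0.23, adjusted p = 0.0363), a call kept without FIT replicate 3 but lost without any other single library (adjusted p 0.083 to 0.112). It was 0.64 lower at day 14 than at day 1 of printed culture (SE 0.17, adjusted p = 0.033), less than 2-fold. Its neighbour SERPINB6, a cytosolic inhibitor of cathepsin G and thrombin, lay at 4.14 to 7.85 FPKM in every library, and no comparison called it.

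SERPINB3 and SERPINB4, inhibitors of cathepsins in squamous epithelia, were low but concentrated in 2 groups. SERPINB4 was 0.497, 0.461 and 1.59 FPKM in D-3 and 1.71, 0.262 and 1.02 FPKM in IT. It was at most 0.256 FPKM in any library of D-2, DP-3, DP-3 day 1 or FIT. SERPINB3 was 0.432, 0.172 and 0.970 FPKM in D-3 and 0.863, 0.207 and 0.405 FPKM in IT, and at most 0.155 FPKM elsewhere. All D-3 and IT libraries of either gene were above all libraries of the other groups. In D-3 against D-2, both were called: SERPINB4 by 3.89 (SE 1.04, adjusted p = 0.0255), and SERPINB3, whose D-2 libraries were all at or below 12 counts, at least 6.69-fold higher (adjusted p = 0.0213). Both passed the filter there only through the D-3 libraries. Against FIT, where all libraries were at or below 12 counts, SERPINB4 was at least 4.03-fold higher in D-3 (adjusted p = 0.0734) and at least 4.71-fold in IT (adjusted p = 0.257), and SERPINB3 at least 2.15-fold (adjusted p = 0.0746) and 2.01-fold (adjusted p = 0.244). None of these 4 changes was called, and both genes passed the filter against FIT only through the D-3 or IT libraries, in which they were high. Without any 1 D-3 library both genes fell below the filter in D-3 against D-2 and were not tested. Those fits therefore cannot show whether either call depends on 1 library. SERPINB3 also overlaps SERPINB11 on the other strand.

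SERPINA1 (alpha-1-antitrypsin, ENSG00000197249, chr14:94376747-94390693, minus strand), the main elastase inhibitor of plasma, was the leading clade A gene, yet only in D-3 did it exceed 1 FPKM. D-3 held 1.12, 1.15 and 1.14 FPKM and D-2 held 0.381, 0.433 and 0.374 FPKM. DP-3 day 1 held 0.547, 0.710 and 0.694 FPKM, and DP-3 held 0.202, 0.346 and 0.233 FPKM. D-3 thus lay above every other library, and day 14 of printed culture lay below day 1. IT (0.173, 0.476 and 0.339 FPKM) and FIT (0.0913, 0.413 and 0.427 FPKM) overlapped D-2 and DP-3. SERPINA1 was 2.39-fold higher in D-3 than in D-2 (log2 fold change 1.26, SE 0.21, adjusted p = 0.00544). It was 2.06-fold lower in DP-3 than in DP-3 day 1 (-1.04, SE 0.30, adjusted p = 0.0437), a call that held without DP-3 replicate 2 and was lost without any other single library (adjusted p 0.0762 to 0.127). In D-3 against FIT it was 3.51-fold higher (1.81, SE 0.57), with an adjusted p of 0.0881.

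SERPINA3 (alpha-1-antichymotrypsin), an acute-phase inhibitor of cathepsin G, was 0.173, 0.148 and 0.178 FPKM in D-3 and at or below 12 counts in every D-2 library, at least 6.27-fold higher in D-3 (adjusted p = 0.00232). It was 0.295 FPKM in IT replicate 3 and 0.147 in FIT replicate 2, and at most 0.0400 in all other libraries outside D-3. The gene overlaps AL049839 on its own strand, and how shared reads were counted is not given in the sources used here. SERPINA3 passed the filter in D-3 against D-2 only through the D-3 libraries. Without any 1 of them it was no longer tested, so those fits cannot show whether its call depends on 1 library. The summed liver markers (7 genes) were also higher in D-3 (0.240 to 0.577 FPKM) than in D-2 (0.0252 to 0.153 FPKM), with no overlap. They were low in both, and only 1 of the 7 was expressed enough to be tested there and was not called. In IT the sums were higher still (0.783 to 1.43 FPKM). The part of these markers in the difference was not tested.

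SERPINI1 (neuroserpin, ENSG00000163536, chr3:167735243-167825569, plus strand), an inhibitor of tissue plasminogen activator best known from neurons, was lowest in D-2, with 0.512, 0.490 and 0.394 FPKM. D-3 held 2.85, 1.29 and 1.95 FPKM, and DP-3 day 1 held 0.988, 1.3 and 1.24 FPKM. All D-2 libraries lay below every library of the other groups. The spread was wide in IT (1.68, 0.690 and 4.72 FPKM), FIT (0.919, 0.554 and 2.21 FPKM) and DP-3 (1.85, 1.08 and 0.537 FPKM). It was called in D-3 against D-2, 3.62-fold higher (log2 fold change 1.86, SE 0.35, adjusted p = 0.00822), and in no other comparison. It overlaps AC079822 on the other strand, and whether the counting used strand is not given in the sources used here. SERPINI2 (pancpin), its relative on the same chromosome, was 0.225, 0.131 and 0.0783 FPKM in D-3 and 0.0662, 0 and 0.143 FPKM in IT. It was at most 0.0306 FPKM in DP-3 and at 0 in all D-2, DP-3 day 1 and FIT libraries. SERPINI2 was called across the 6 groups (adjusted p = 0.0169). It reached 0.1 FPKM in only 3 libraries, of D-3 and IT, and so passed the filter only through groups in which it was high.

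Other tested serpins were not called anywhere. SERPIND1 (heparin cofactor II), which overlaps PI4KA on the other strand, ranged from 0 to 0.804 FPKM, SERPINA5 (protein C inhibitor) from 0 to 0.331, SERPING1 (C1 inhibitor) from 0 to 0.270 and SERPINE3 from 0 to 0.229. SERPINC1, SERPINB2, SERPINB5 and SERPINB9 did not pass the filter in any comparison and were not tested. SERPINC1 (antithrombin) reached at most 0.132 FPKM and SERPINB2, a serpin kept mostly inside cells, 0.0831. SERPINB5 (maspin), which is known as an epithelial tumor suppressor, stayed at or below 0.0390 FPKM and SERPINB9 (granzyme B inhibitor) at or below 0.0905.

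The proteases and partners of the serpins were counted in lists. The 7 complement and lectin-pathway proteases listed include C1R, C1S, MASP1 and MASP2, the targets of SERPING1, and CFB and CFD of the alternative pathway, which are not. In D-3 against D-2, where 14.6% of all genes were called higher, 4 of the 5 tested were higher, C1S by 2.71, C1R by 1.85, MASP2 by 1.54 and CFB by 3.00 (SE 0.17, adjusted p = 0.000592) on the log2 scale (median 1.85, beside 0.11 for all genes). Against FIT, 4 of 6 were lower in D-2 (CFB, CFD, MASP1 and MASP2; 10.8% of all genes were called lower), 1 of 7 in D-3 (2.17%) and 1 of 6 in DP-3 (3.16%), MASP1 each time, with log2 fold changes of -3.33, -3.71 and -4.03. MASP1 was 2.33, 1.9 and 0.423 FPKM in FIT and at most 0.517 FPKM elsewhere.

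Of the 11 cysteine cathepsins, the targets of some clade B serpins, 4 of 10 tested were higher in D-3 than in FIT (CTSH, CTSL, CTSO and CTSV), against 4.29% of all genes called higher. In D-2, 3 of 9 were called (CTSH and CTSV higher, CTSS lower), against 14.6%, and in DP-3 none of 10, against 4.82%. CTSL was the most abundant of those named, at 121, 123 and 113 FPKM in D-3 against 61.0, 60.5 and 43.7 FPKM in FIT (log2 fold change 1.05, SE 0.18, adjusted p = 0.0158). Of the 14 coagulation proteases and cofactors only 5 were expressed enough to be tested, and PROS1, the cofactor protein S, was higher than in FIT in D-2 (1.57, SE 0.32, adjusted p = 0.0115), D-3 (2.74, SE 0.35, adjusted p = 0.00543) and DP-3 (1.62, SE 0.40, adjusted p = 0.0484). F2R, a thrombin receptor of the same list, was lower in D-3 than in FIT (-1.40, SE 0.16, adjusted p = 0.00369). Of the 9 receptors and clearance genes, 8 were tested and SDC1 (syndecan-1) was called in D-2 against FIT (1.02, SE 0.13, adjusted p = 0.00297), none in D-3 or DP-3, and VLDLR in D-3 against D-2 (1.38, SE 0.37, adjusted p = 0.0252). LRP1, which takes up serpin and protease complexes, was 5.80 to 7.10 FPKM in D-2 and at least 9.14 in all other libraries, and was called across the 6 groups (adjusted p = 3.98e-05). Leukocyte serine proteases (1 of 10 listed tested in each pairwise comparison) and kallikreins (2 or 3 of 19) were mostly too low to test.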

How the data were processed

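Poly(A) RNA libraries were made by the authors with a dUTP second strand and sequenced in pairs. Per the labels, reads were trimmed with cutadapt 1.9, aligned with HISAT2 2.0.4 and assembled with StringTie 1.3.4d. The authors deposited FPKM values and whole-number estimated counts for each gene and library in 1 table. How the estimated counts were made, the genome build and the treatment of mouse reads are not given in the sources used here. Gene positions in the table match GRCh38: the 33 serpins described lie in GENCODE 29, 9 of them with the same ends. Of the 34 serpins found by name, 1 is not reported here and enters no count of serpins, though it stayed in every fit. About 4 estimated counts were assumed to stand for 1 read pair (33.3% of the low counts, up to 100, were multiples of 4, against 25% if evenly spread), so 12 were taken as the detection limit and used for lower bounds. Such limits cover counting error only. 0 columns of values were left unassigned to a sample, and no 2 libraries were identical.

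The plan named edgeR for counts and limma for FPKM alone. Estimated counts were present, so edgeR 4.0.16 in R 4.3.3 was used: TMM scaling, glmQLFit, glmQLFTest and Benjamini-Hochberg adjustment over all genes tested. Genes with at least 0.1 FPKM in at least 3 fitted libraries were tested, each comparison on its own 6 libraries and the 6 groups in 1 F test. The smallest p of an exact permutation test of 3 against 3 libraries is 0.1, so none was used. Standard errors were derived from the F statistic. Serpins were given one by one where they were called with a mean of at least 1 FPKM in a group, or reached a mean of 10 FPKM, and others by ranges and examples. The examples SERPINA3, SERPINB2, SERPINB3 to SERPINB6, SERPINB8, SERPINB9, SERPINC1, SERPINI2, LRP1 and PLG were chosen after values were seen. The members and gene lists were chosen with earlier results of these data known. The fits were tested on simulated counts. Alternatives were DESeq2, median-of-ratios scaling, other filters, limma on log2(FPKM + 0.1) and log2(FPKM + 1), 1 fit of all libraries, a replicate block and leaving out each library.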

Additional observations from a re-analysis of the deposited data

How the results depend on the processing

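The serpins called in D-2 against FIT were 2 under each alternative that kept all libraries, and 2 to 3 when 1 library was left out. Elsewhere counts moved. D-3 against FIT gave 4 with DESeq2, 3 with no filter on low values and 2 both with limma on log2(FPKM + 0.1) and with one fit of all libraries (1 to 2 without 1 library). DP-3 against FIT gave 1 with limma on log2(FPKM + 0.1) (0 to 4 without 1 library). IT against FIT gave 3 with DESeq2 and 1 with one fit of all libraries (0 to 0 without 1 library). DP-3 against DP-3 day 1 gave 1 with no filter and with one fit of all libraries, and 0 with an FPKM minimum of 1 and with limma on log2(FPKM + 1) (0 to 2 without 1 library). D-3 against D-2 gave 3 with an FPKM minimum of 1 and 2 with limma on log2(FPKM + 1) (3 to 5 without 1 library). DP-3 against D-2 gave 4 with DESeq2 and 1 with either limma fit (0 to 2 without 1 library). The 6 groups gave 4 with limma on log2(FPKM + 1) (6 to 13 without 1 library). Apart from the serpins that fell below the filter in D-3 against D-2, the cause of these moves was not tested.

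The replicate numbers showed no clear pairing of the samples: in no comparison were all 3 correlations of same-numbered deviations above 0.1. With 3 libraries in a group, these correlations cannot show whether libraries shared a tumor or a batch. With the replicate number as a block, which has fewer residual degrees of freedom, the serpins called were 0 in DP-3 against FIT, 1 in DP-3 against DP-3 day 1, 0 in DP-3 against D-2, 2 in D-2 against FIT, 1 in D-3 against FIT, 0 in IT against FIT, 6 in D-3 against D-2 and 9 across the 6 groups. In DP-3 against DP-3 day 1 every sample deviated most like its own number, a hint from the data and not the design.

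Of 969 values of single named serpins under an alternative, 871 kept direction and side of the threshold, 53 lost the call, 18 gained one and 27 changed sign, each of the latter in a comparison where the gene was not called. SERPINE2 in D-3 against FIT was -0.0085 with DESeq2 and with median-of-ratios scaling and -0.014 with one fit of all libraries (-0.14 to 0.21 without 1 library). SERPINI1 in DP-3 against FIT was -0.035 with an FPKM minimum of 1, -0.021 with limma at a pseudocount of 0.1 and -0.022 at 1 (-0.44 to 0.76 without 1 library), and in DP-3 against DP-3 day 1 -0.15 and -0.053 with limma (-0.26 to 0.56 without 1 library). SERPINA1 in DP-3 against FIT was 0.12 with the replicate block (-0.59 to 0.18 without 1 library). SERPINH1 in D-3 against D-2 was 0.048 with an FPKM minimum of 1 and 0.14 with either limma fit (-0.22 to 0.051 without 1 library). In IT against FIT, SERPINA1 (-0.35 to 0.42 without 1 library) and SERPINI1 (-0.036 to 1.68 without 1 library) changed sign without 1 library, as did SERPINB7 in DP-3 against DP-3 day 1 (-0.73 to 0.068 without 1 library).

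FIT replicate 3 had the lowest depth, and its lowest-level serpins rest on few read pairs. Another scaling moves the median of all genes by 0.20 on the log2 scale in D-3 against D-2 (0.11 with TMM, 0.31 by library size). The move was larger in DP-3 against DP-3 day 1 (-0.061 with TMM, -0.287 by library size), where the called changes of SERPINF1 and SERPINA1 were close to 2-fold.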
